A study of Homo sapiens with 8 samples.

Results

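The CTCF peaks around the 3 MYC family genes, MYC, MYCN and MYCL, were examined in HT1080 cells with and without the curaxin CBL0137. A peak belonged to a locus if its centre lay in a fixed window of 2 Mb around the gene, a choice made by position alone. The windows held 124 of the 47470 CTCF peaks of control cells, 33 around MYC, 32 around MYCN and 59 around MYCL. They held 63 of the 29558 peaks of CBL0137-treated cells, 14, 14 and 35 in the same order. Of the 124 control peaks, 67 had no counterpart in treated cells (54.0%, beside 42.9% of all control peaks). Within 0.5 Mb to either side of the genes that share was 41.4% together, with 56.3% around MYC, 46.7% around MYCN and 29.6% around MYCL. Of the 63 treated peaks, 6 had no counterpart in control cells (9.52%, beside 8.07% of all treated peaks).

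HT1080 is a human fibrosarcoma line of connective tissue whose label gives ras + as the oncogene. Cells of the treated group were exposed to 3 µM CBL0137 for 6 h, the control group carries no treatment label, and both groups are the same line, so that the results describe 1 cell line at 1 dose and time. DNA bound by CTCF was immunoprecipitated with a polyclonal antibody and sequenced beside input DNA, with 2 biological replicates of each per group. The authors called the peaks of a group from its replicates together, so each group has 1 peak list, no value per replicate exists in it, and no difference between groups given here carries a replicate error or a p-value. A peak has a fold over input, which is the ratio of immunoprecipitated to input signal as computed by the authors.

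CTCF is a zinc-finger protein that binds DNA at a directional core sequence and, together with cohesin, anchors chromatin loops and borders of contact domains. MYC, MYCN and MYCL encode basic helix-loop-helix leucine zipper transcription factors that bind E-boxes as heterodimers with MAX and drive growth and proliferation. MYC is expressed in most dividing cells, whereas MYCN and MYCL act mainly in developing tissues and are amplified in neuroblastoma and in small cell lung cancer, respectively. The MYC gene lies in a gene-poor region with distant enhancers, and a CTCF site just upstream of the gene is known as a docking point for loops to such enhancers.

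The sequences below are the best matches to the CTCF core consensus within 400 bp around the centre of peaks at MYCN and MYCL. The peaks are a selection of those nearest to the genes or strongest in their window. Bases are those of the reference build hg19, 5′ to 3′ on the strand of the match, with the 12 bases of the core in capitals. The first set is from MYCN, which is transcribed from the plus strand of chromosome 2. The peak in the MYCN intron (core on the plus strand, chr2:16083578-16083649) was kept, and its core differed from the consensus at 1 base. The strongest peak of the window (minus strand, chr2:15889003-15889074) was kept, also with 1 mismatch. The peak just upstream of the MYCN start (plus strand, chr2:16079963-16079992) and the strong peak downstream in the long non-coding RNA gene GACAT3 (minus strand, chr2:16174414-16174443) were lost, and the best core in each had 3 mismatches, which was not counted as a match.
MYCN intron, kept: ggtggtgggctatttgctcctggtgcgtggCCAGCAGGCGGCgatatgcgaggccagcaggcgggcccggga
MYCN strongest, kept: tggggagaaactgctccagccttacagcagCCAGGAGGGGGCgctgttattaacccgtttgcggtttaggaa
MYCN upstream of the start, lost: gctcagtctCCGCGAGGTGTCgccttcggc
MYCN downstream in GACAT3, lost: caaatattcCCCCTACCTGGCccggcccac

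MYCL is transcribed from the minus strand of chromosome 1. The second set is from its surroundings and holds peaks nearest to the gene, but none of the 3 strongest of the window. Neither set prints a kept peak without a match, of which there were 1 around MYCN and 6 around MYCL. The peak at the MYCL start (core on the minus strand, chr1:40368051-40368122) was kept, with 1 mismatch. The next peak upstream (plus strand, chr1:40385316-40385387) was lost, although its core also had 1 mismatch. The peak after it (minus strand, chr1:40439329-40439400) was kept, with no mismatch. The nearest 2 peaks downstream of the gene (plus strand, chr1:40282646-40282675, and minus strand, chr1:40265499-40265528) were kept and had no mismatch.
MYCL start, kept: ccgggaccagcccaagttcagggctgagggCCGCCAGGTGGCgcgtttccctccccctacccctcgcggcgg
MYCL upstream 2, lost: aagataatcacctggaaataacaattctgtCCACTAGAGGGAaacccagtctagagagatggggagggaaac
MYCL upstream 3, kept: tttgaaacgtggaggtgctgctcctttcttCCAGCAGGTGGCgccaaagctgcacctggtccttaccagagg
MYCL downstream 1, kept: tgtttgtgtCCACCAGGGGGCagagagagg
MYCL downstream 2, kept: tgccggcgtCCACCAGGGGGCagagagagg

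The downstream pair shares the same core on opposite strands at a distance of 17.1 kb. Over 72 bases around and including the 12 of the core, 61 of 72 bases were equal. The authors discarded reads with more than 1 alignment, and how many reads each site of this pair lost by that filter was not tested. In the 250 bases before the start site of MYCN and of MYCL, as given by RefSeq for build GRCh38.p14, no match was found, the best cores having 3 and 2 mismatches. The RefSeq start of MYCL differs from the GENCODE start used for all distances here: its stretch lies at chr1:40367590-40367839 in hg19, inside the gene as GENCODE gives it, and does not reach the core printed above for the MYCL start. Of 35116 promoters searched in the same way on both strands, 4.31% held a match.

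A control peak was called kept if it overlapped a peak of treated cells by at least 1 bp and lost otherwise, and a treated peak without any overlap was called arisen. Around MYC, 20 of 33 control peaks were lost (60.6%, Wilson 95% interval 43.7 to 75.3%). Around MYCN 18 of 32 were lost (56.3%, 39.3 to 71.8%), and around MYCL 29 of 59 (49.2%, 36.8 to 61.6%). Over all control peaks 42.9% were lost. The windows together had lost 54.0% (45.3 to 62.6%), which lies above that background, and the intervals of the separate windows of MYCN and MYCL include it. For the windows together, the position above the background was not seen within 0.5 Mb to either side of the genes. There 41.4% of 58 control peaks were lost, with 56.3% of 16 around MYC, 46.7% of 15 around MYCN and 29.6% of 27 around MYCL. The position of the windows together was slight where more than 75% of the larger peak had to overlap, with 68.5% beside 67.7% over the genome. The intervals cover counting error only, and neighbouring peaks are not independent of each other.

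The 3 loci were not told apart by their lost share. The difference between MYC and MYCL was 11.5 percentage points, with an interval of -9.53 to 30.6 points. The difference between MYC and MYCN was 4.36 points (-18.6 to 26.8), and that between MYCN and MYCL 7.10 points (-13.9 to 27.0). When the genome was divided into tiles of 2 Mb, the lost share of the 1341 tiles with at least 10 control peaks had a median of 46.2%, and the middle part between the quartiles ran from 36 to 55.6%. The windows of MYC and MYCN lay above the upper quartile and that of MYCL inside the quartiles, and all were within the range of 24.2 to 69.7% that held the tiles from the 5th to the 95th percentile. The chromosomes of MYC, MYCN and MYCL had lost 47.8, 45.9 and 42.2% of their control peaks.

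**Figure D1:**
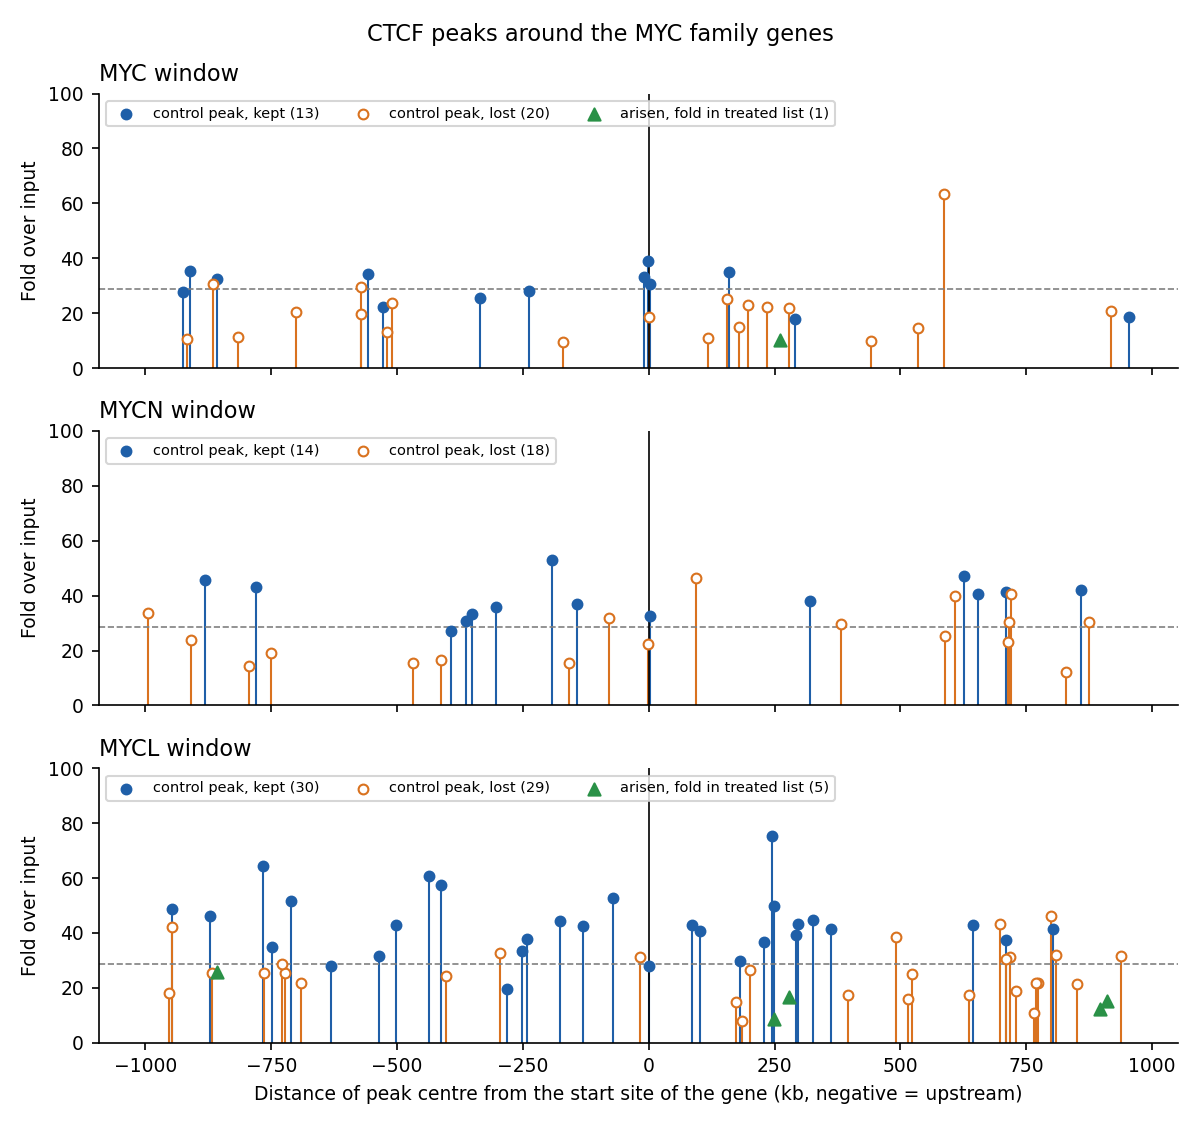
Fold over input of every control peak in the 3 windows (y axis) against the distance of its centre from the start site of the gene in kb (x axis, negative upstream), with filled blue points for kept peaks, open orange points for lost peaks and green triangles for arisen peaks at their fold in the treated list. The dashed line is the median fold of all control peaks (28.7), and the highest point of the MYC window, at a fold of 63.3, is a lost peak.

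The windows differed in how densely and how strongly CTCF was bound in control cells. MYC and MYCN had 33 and 32 control peaks, near the median of 30 over all tiles of 2 Mb, and MYCL had 59, above the upper quartile of 41. The median distance between neighbouring peaks was 36.7 kb around MYC, 30.4 kb around MYCN and 19.8 kb around MYCL. The windows held 2, 4 and 30 start sites of protein-coding genes, respectively. The median control fold was 22.2 around MYC, below the 28.7 of all control peaks, and 32.2 around MYCN and 32.9 around MYCL.

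Lost peaks had a lower median fold in control cells than kept peaks in each window, as they did over the genome. Around MYC the median control fold was 20.03 for lost and 30.8 for kept peaks, around MYCN 24.6 and 39.2, and around MYCL 25.4 and 42.6. Over all peaks the medians were 20.6 and 34.9. The ranges overlapped in every window. Lost peaks reached a fold of 63.3 around MYC, 46.4 around MYCN and 46.1 around MYCL, and kept peaks went down to 17.7, 27.3 and 19.5.

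The lost share was then read at equal control fold. Applying the genome-wide lost share of each decile of the fold distribution to the peaks of a window gave 54.8% for MYC, 36.6% for MYCN and 33.6% for MYCL, against the 60.6, 56.3 and 49.2% that were counted. The value at equal fold lay inside the interval of the counted share for MYC and below it for MYCN and MYCL. Of the peaks with a fold above the genome median, 3 of 10 were lost around MYC, 8 of 21 around MYCN and 10 of 37 around MYCL, which is 30.9% together beside 20.1% over the genome. Of the peaks below the median, 17 of 23, 10 of 11 and 19 of 22 were lost, 82.1% together beside 65.7%.

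**Figure D2:**
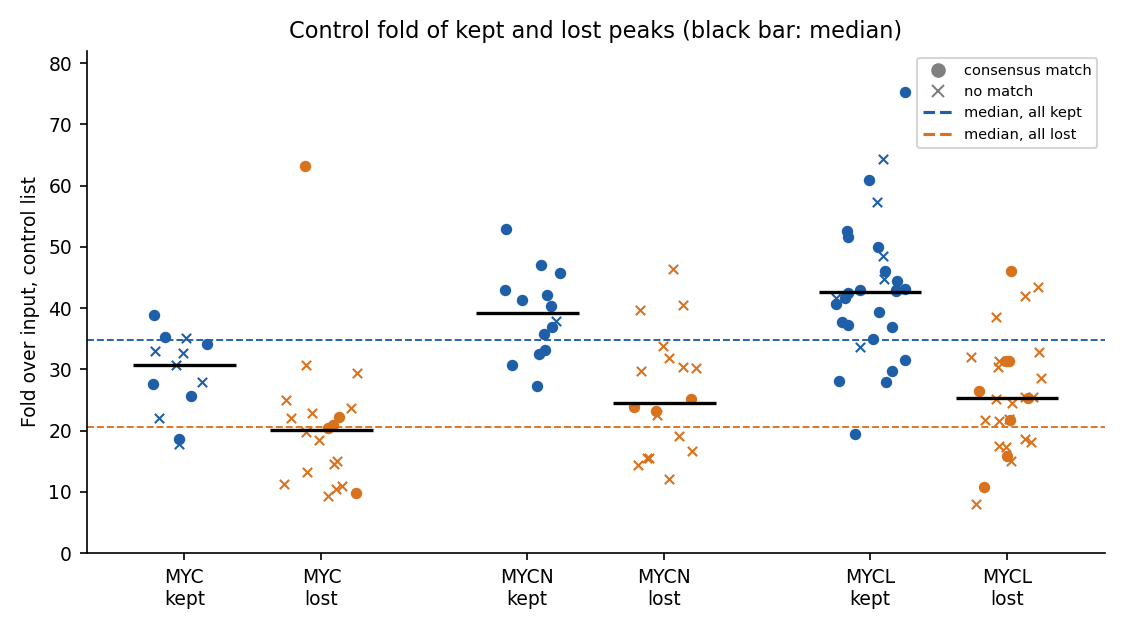
Control fold over input (y axis) of each kept and lost control peak in the windows of MYC, MYCN and MYCL, drawn as a dot where the peak had a consensus match and as a cross where it had none. Black bars are medians, and the dashed lines are the medians of all kept (34.9) and all lost (20.6) control peaks. Crosses make up most of the lost columns, and dots most of the kept columns of MYCN and MYCL.

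In each window a larger share of the peaks with a CTCF core than of those without one was kept, with the widest gap around MYCN. A match was a 12-base core within 400 bp around the peak centre, on either strand, with at most 1 mismatch to the consensus. It was present in 11 of 33 control peaks around MYC, 16 of 32 around MYCN and 32 of 59 around MYCL, beside 49.0% of all control peaks. Around MYCN, 3 of 16 peaks with a match were lost and 15 of 16 without. Around MYCL the counts were 8 of 32 and 21 of 27, and around MYC 5 of 11 and 15 of 22. The intervals of the lost share with and without a match were apart around MYCN (6.59 to 43.0% and 71.7 to 98.9%) and MYCL (13.3 to 42.1% and 59.2 to 89.4%), and overlapped around MYC (21.3 to 72.0% and 47.3 to 83.6%).

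Over the 3 windows, 27.1% of the peaks with a match were lost (17.4 to 39.6%) and 78.5% of those without (67.0 to 86.7%). Over all control peaks these shares were 27.6 and 57.6%. The windows therefore stood at the genome's value for peaks with a match and above it for peaks without one. Peaks with a match were also stronger, with median folds of 35.8 and 25.1 in the windows. At a fold above the genome median, 4 of 40 peaks with a match were lost (10%) and 17 of 28 without (60.7%, 42.4 to 76.4%), beside 12.7 and 31.2% over the genome. In this class none of the 12 peaks with a match around MYCN was lost, and 8 of the 9 without one were. A count of 0 among 12 peaks still allows a share of up to 24.2% by the Wilson interval. Below the genome median, 12 of 19 peaks with a match were lost (63.2%, 41.0 to 80.9%) and 34 of 37 without (91.9%). The genome's shares in that class were 51.1 and 74.6%. No match says only that these letters were not found in the window searched.

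**Figure D3:**
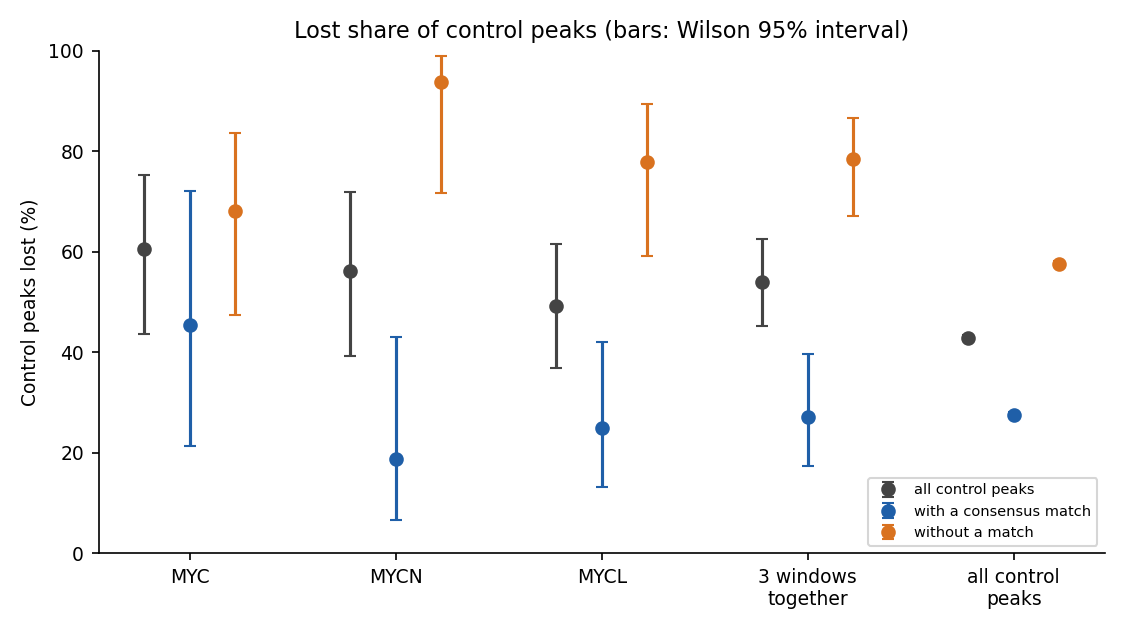
Percent of control peaks lost (y axis) in each window, in the 3 windows together and over all control peaks, for all peaks (grey), peaks with a consensus match (blue) and peaks without one (orange). Bars are Wilson 95% intervals, which cover counting error only. In the 3 windows together the values are 54.0, 27.1 and 78.5%.

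The authors also compared the groups directly, from the same libraries, and listed the sites higher in control or in treated cells. Only the positions of these sites were used here. Of the lost peaks, 17 of 20 around MYC, 14 of 18 around MYCN and 23 of 29 around MYCL lay at a site higher in control cells, beside 78.4% of all lost peaks. Of the kept peaks, 6 of 13, 4 of 14 and 6 of 30 did, beside 30.8% of all kept peaks. Treated peaks at sites higher in treated cells numbered 1 around MYC, 0 around MYCN and 4 around MYCL, beside 7.25% of all treated peaks. The members' shares were thus near the background in the lost class.

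MYC is encoded on the plus strand of chromosome 8, with the gene at chr8:128747680-128755197 in hg19. Close to its start, the peaks upstream were kept and those inside the gene were lost or narrow in treated cells. The peak nearest upstream, centred 1.33 kb from the start in an intron of the long non-coding RNA gene CASC11 (chr8:128746151-128746550), had a fold of 38.8 in control and 35.2 in treated cells. It kept its full width of 400 bp and had a consensus match. It is the strongest kept peak of the MYC window. The next peak upstream, 9.50 kb from the start and also in CASC11 (chr8:128737951-128738400), had a fold of 33.1 in the control and 45.1 in the treated list. Because the lists were made separately, such pairs are given by their place within each list, as the percentile of the fold, and not as a ratio. The 2 peaks stood at percentiles 75.6 and 62.2 in control cells and 66.6 and 82.8 in treated cells.

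Inside MYC there were 2 control peaks, neither with a consensus match. The one over coding exon sequence 0.821 kb downstream of the start (chr8:128748351-128748650, fold 18.5) was lost at a site higher in control cells. The other, over an untranslated region 2.42 kb downstream (chr8:128749951-128750250, fold 30.8), overlapped a treated peak of only 100 bp with a fold of 11.6, and passed from percentile 56.0 to 7.94. It counted as kept by any overlap, and as lost where more than 50% of the larger peak had to be shared, which is the rule stated in the study's methods. Away from the gene the next peaks upstream were a weak one at 170.2 kb (fold 9.41, lost) and one at 238.9 kb (fold 28.0, kept).

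Downstream of MYC lies PVT1, a long non-coding RNA gene whose promoter is known to compete with that of MYC for enhancers. Of its 9 control peaks 7 were lost, beside 42.9% of all control peaks and 65.7% of those below the median fold. The PVT1 peaks were weak, with a median fold of 22.04, and 2 of the 9 had a consensus match. The lost ones included the nearest 2, in exons at 116.8 kb (fold 11.03) and 154.8 kb (fold 25.1) from the MYC start. A run of 4 consecutive lost peaks covered chr8:128926701-129027250 in PVT1. The arisen peak of the window, 100 bp wide with a fold of 10.2, was also in a PVT1 intron, 261.3 kb from the MYC start (chr8:129008951-129009050). Of the control peaks downstream of the MYC start 11 of 15 were lost (73.3%), and of those upstream 9 of 18 (50%), beside the same 42.9%. On the upstream side, 8 of the 14 peaks in PCAT1, a prostate cancer-associated non-coding RNA gene, were lost, at a median fold of 24.7. In all, 26 of the 33 control peaks of the window lay in non-coding RNA genes only, beside 6 of 32 around MYCN and 6 of 59 around MYCL. The share over all control peaks was not computed.

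The strongest control peak of the MYC window was lost. It lay in intergenic sequence 587.4 kb downstream of the start (chr8:129334901-129335250), with a fold of 63.3, percentile 98.1, and rank 921 of all control peaks. It had a consensus match on the minus strand, and it was at a site higher in control cells. The nearest treated peak was 296.7 kb away. Of the 921 control peaks with at least this fold, 34 were lost in the genome (3.69%), and this peak was one of them. With its neighbours it formed a run of 4 lost peaks over 476.4 kb (chr8:129189551-129665900).

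**Figure D4:**
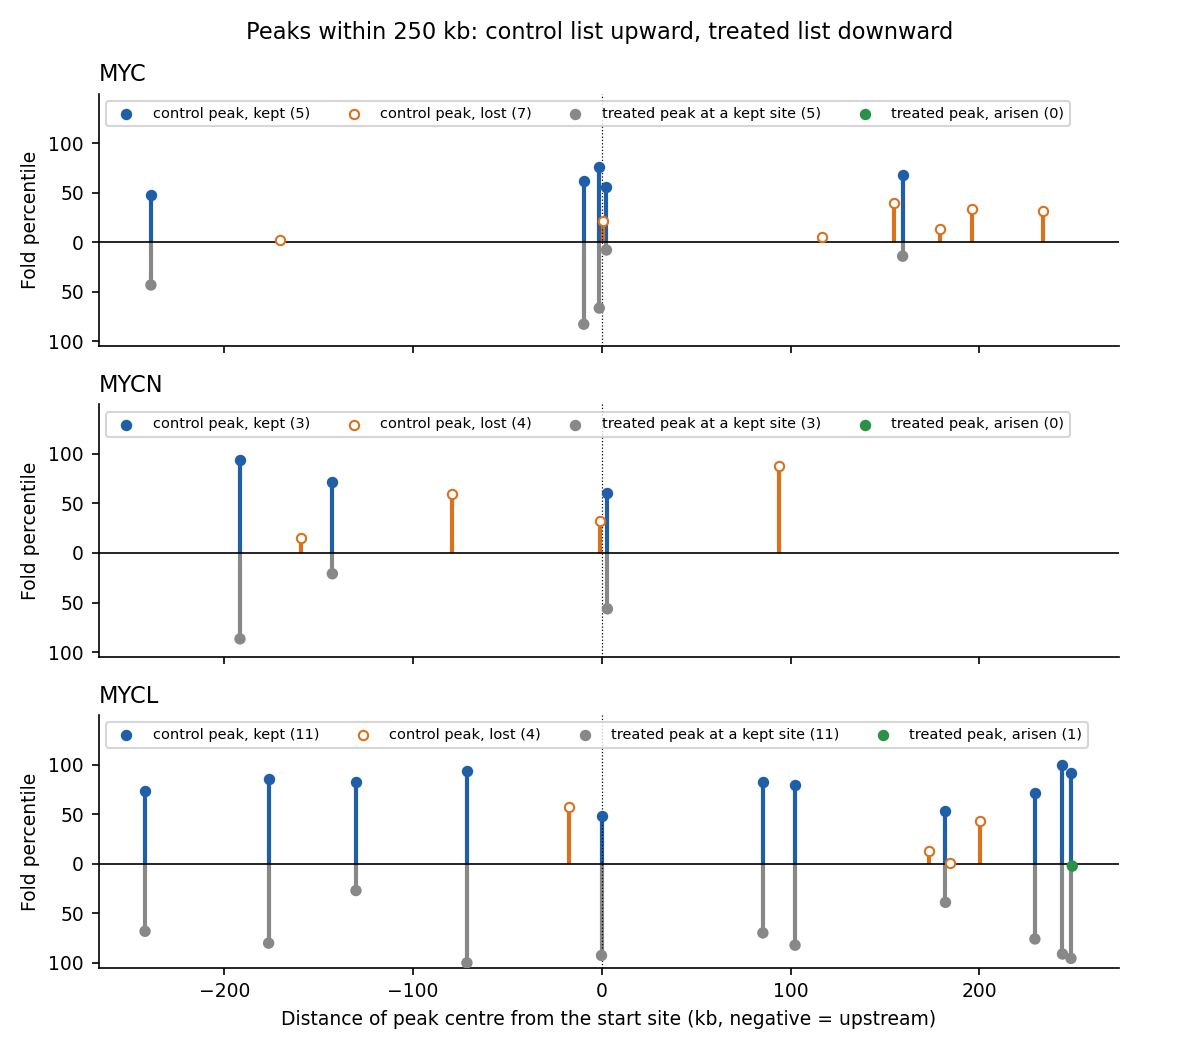
Peaks within 250 kb of the start sites of MYC, MYCN and MYCL, as the percentile of the fold within the list (y axis, control list upward and treated list downward) against the distance from the start in kb (x axis, negative upstream). Filled blue and open orange points are kept and lost control peaks, grey points are treated peaks at kept sites and green points arisen peaks. Of the control peaks shown, 7 of 12 were lost around MYC, 4 of 7 around MYCN and 4 of 15 around MYCL. The share over all control peaks was 42.9%.

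MYCN, at chr2:16080672-16087129 on the plus strand, had a lost peak just before its start and a kept peak in its intron. The upstream peak (chr2:16079801-16080150, fold 22.5), centred 0.697 kb from the start in an intron of MYCNOS, the antisense transcript of MYCN, was lost at a site higher in control cells. The intron peak, 2.93 kb downstream of the start (chr2:16083501-16083700), had a fold of 32.5 in control and 30.4 in treated cells. Its width went from 200 to 300 bp, and it is the peak whose core with 1 mismatch is printed above. Neither list held a second peak in the gene.

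Around MYCN the nearest peaks to either side held both lost and kept ones. Upstream, the peaks at 79.6 kb (fold 31.9) and 159.2 kb (fold 15.6) were lost, and that at 142.7 kb (fold 36.99) was kept, though it stood at percentile 71.6 in control and 21.0 in treated cells. Downstream, the nearest peak beyond the gene, at 93.7 kb in an exon of GACAT3 (chr2:16174301-16174500), had a fold of 46.4 at percentile 87.7 and was lost. It was the strongest lost peak and the third strongest control peak of the window. The nearest treated peak was 90.5 kb from it. Of all control peaks with at least its fold, 8.33% were lost. The peaks at 319.4 kb (fold 37.9) and 382.6 kb (fold 29.7) were kept and lost, and the first is the single kept peak of the window without a consensus match.

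The 2 strongest MYCN peaks, at 191.6 kb upstream (fold 53.0) and 626.1 kb downstream (fold 47.1), were both kept. Of all control peaks with at least these folds, 5.97 and 7.93% were lost. The peak at 191.6 kb closed a run of 5 kept peaks (chr2:15686751-15889250) that began in NBAS, a gene of vesicle transport. The run passed DDX1, an RNA helicase gene often co-amplified with MYCN. The run with the most lost peaks held 4 over 114.0 kb (chr2:16794751-16908700), 3 of them in CYRIA, a regulator of the actin cytoskeleton. Lost runs of 3 peaks covered more sequence, 338.3 kb in NBAS (chr2:15329501-15667750) and 226.7 kb beyond GACAT3 (chr2:16463151-16689850). No peak arose in the MYCN window.

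MYCL, at chr1:40361100-40367928 on the minus strand, was the member with a kept peak on its own start. The peak (chr1:40367901-40368200) was centred 0.123 kb upstream of the start and overlapped the first bases of the gene. Its fold was 28.2 in control cells, at percentile 48.4, and 54.9 in treated cells, at percentile 92.5. It lay at a site higher in treated cells, and its width went from 300 to 350 bp. Its gain of 44.1 percentile points was the largest among the 30 kept peaks of the MYCL window.

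The nearest peaks beside MYCL held both kept and lost ones. For comparison, 42.9% of all control peaks were lost, and 20.1% of those above the median fold. Upstream, the peak at 17.4 kb (fold 31.4) was lost in spite of its consensus match. The following one, at 71.4 kb (chr1:40439151-40439550), stood at percentile 93.5 in control cells (fold 52.6) and 99.98 in treated cells (fold 102.2), where it ranked 5 among all 29558 peaks. It lay at no site higher in treated cells. The peak at 130.2 kb (fold 42.4) was kept, at percentile 82.1 in control and 27.0 in treated cells. Downstream, the pair with the same core at 85.3 and 102.4 kb (folds 42.9 and 40.7) and the peak at 182.1 kb (fold 29.8) were kept, whereas the weak peaks at 173.2 kb (fold 15) and 184.3 kb (fold 8.10) were lost.

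Within 250 kb of the start, 4 of 15 control peaks were lost at MYCL, 7 of 12 at MYC and 4 of 7 at MYCN. Within 100 kb the counts were 1 of 4, 1 of 4 and 3 of 4. The numbers are too small to place the genes in an order. The strongest MYCL control peaks, with folds of 75.3 in an untranslated region of NT5C1A, a nucleotidase gene, 64.4 near RIMS3 and 60.8 near SMAP2, were all kept. The first ranked 176 among all control peaks and 2647 among the treated peaks. Of all control peaks with at least the folds of these 3 peaks, 2.27, 3.46 and 4.67% were lost, in the same order.

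The 59 control peaks of the MYCL window formed 27 runs of consecutive lost or kept peaks, of which 17 were single peaks, and whether peaks of 1 fate were grouped was not tested. The longest lost run by number, of 7 lost peaks (chr1:39568201-39657550, folds between 10.9 and 46.1) lay within MACF1, which encodes a large linker of actin and microtubules, and 13 of the 16 control peaks of MACF1 were lost, beside 42.9% of all control peaks. Between it and MYCL, a run of 7 kept peaks (chr1:40004851-40138700, folds between 36.9 and 75.3) passed PABPC4, HEYL and NT5C1A. Runs of 6 and of 5 kept peaks followed upstream of MYCL. Of the peaks downstream of the gene 19 of 32 were lost (59.4%), and of those upstream 10 of 27 (37.04%), to either side of the 42.9% of all control peaks.

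Of the treated peaks, 6 had arisen, 9.52% of 63 beside 8.07% of all treated peaks. Apart from the one in PVT1, all 5 were in the MYCL window. The peak beside the start of AKIRIN1 (chr1:39456701-39456950, fold 15.2), that near HEYL (chr1:40088951-40089100, fold 16.8) and that in the untranslated region of NT5C1A (chr1:40118601-40118800, fold 8.74) lay at sites higher in treated cells. The other two, at chr1:39472501-39472600 (fold 12.5) and in an intron of the transcription factor gene NFYC (chr1:41225401-41225500, fold 25.7), did not. All 6 were below the median fold of the treated list, and 5 of them had a consensus match. Neither count was compared with all arisen peaks, so neither can be read as a trait of these 6. For the peak at chr1:39472501-39472600 the core (chr1:39472603-39472614) lay outside the peak, within the 400 bp searched.

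Kept peaks were compared by width and rank. Treated partners were narrower for 10 of 13 kept peaks around MYC, 9 of 14 around MYCN and 13 of 30 around MYCL, together 56.1% beside 62.4% over the genome. The median change in percentile was -4.74 points around MYC, -7.45 around MYCN and -8.52 around MYCL, beside -9.21 over the genome. The percentile was higher in treated cells for 6 of 13, 4 of 14 and 10 of 30 kept peaks, together 35.1% beside 35.2%. Both together shares were close to those over the genome. The widest changes were in single peaks, such as that in the non-coding RNA gene CCDC26 953.8 kb downstream of MYC (chr8:129701401-129701600), which stood at percentile 22.02 in control and 85.3 in treated cells and lay at a site higher in treated cells.

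**Figure D5:**
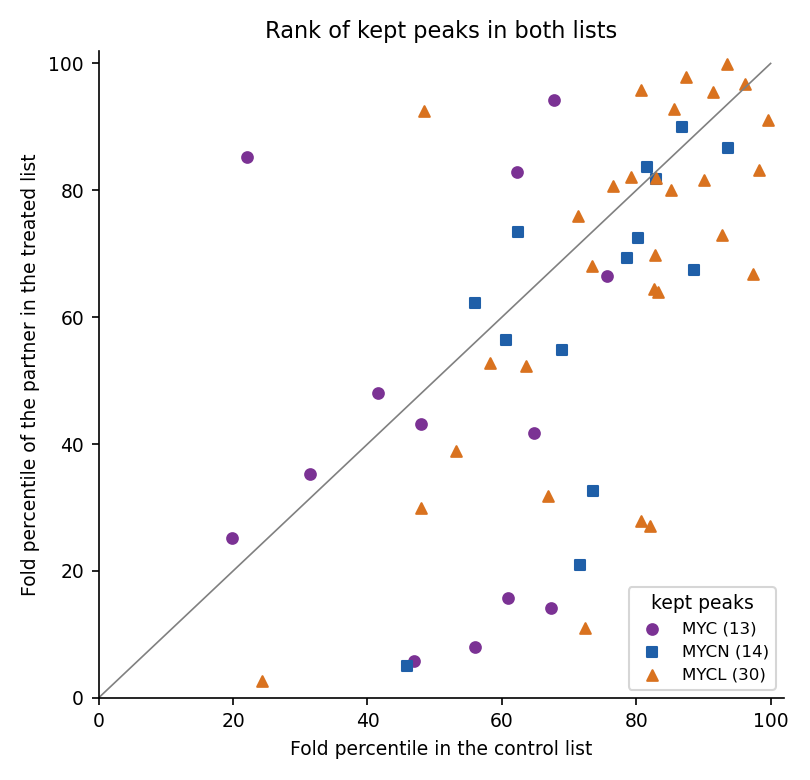
Percentile of the fold within the control list (x axis) and of the overlapping peak within the treated list (y axis) for the 57 kept peaks of the windows of MYC (circles), MYCN (squares) and MYCL (triangles). The grey line marks equal percentiles, and 20 of the points lie above it.

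The network around MAX, the dimer partner of MYC proteins, was looked at from a list of 10 genes. They were MAX, its other partners MXD1, MXI1, MXD3, MXD4, MNT and MGA, which counter MYC at E-boxes, and MLX with partners MLXIP and MLXIPL. Within 50 kb of their start sites lay 38 control peaks, of which 12 were lost (31.6%, 19.1 to 47.5%), beside 37.2% of the control peaks within that distance of any protein-coding start. This was not told apart from the background. The nearest peak was kept for 7 of the genes and lost for 3, namely MAX, MXD4 and MLXIPL. The peak nearest to MAX, the obligate partner of all MYC proteins, was centred 812 bp from its start (chr14:65570101-65570350, fold 25.7), and it was the only control peak within 50 kb.

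The window borders were set by position alone. The control peaks next to the borders lay between 5.38 and 125.5 kb inside and between 1.78 and 121.6 kb outside. Of the 6 nearest inside 2 were kept, and of the 6 nearest outside 5 were, where 42.9% of all control peaks were lost. With 6 peaks each, inside and outside cannot be told apart.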

How the data were processed

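CTCF ChIP-seq of control and CBL0137-treated HT1080 cells was analysed from 4 deposited peak lists. Per the submitters' processing notes the tools were Bowtie2 2.2.3, SAMtools 1.5 and deepTools 2.0 with build hg19. The authors removed reads aligned more than once and duplicates, and called peaks with PePr on both replicates of a group together. The fold over input is a ratio deposited by the authors, beside a p-value, which was not used, and an FDR whose method is not given in the sources used here. The labels describe paired-end reads and the paper single-end reads. The lists of the authors' direct comparison hold a fold and p-value between groups, which were not used, only the positions. Depth per library cannot be read from peak lists, and it limits which weak peaks were called. The paper's reporting summary gives similar numbers of uniquely mapped reads for the ChIP libraries of both groups. It gives fewer for the second input library of treated cells than for the other inputs.

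Overlap, consensus search and Wilson intervals were computed in Python 3.11.15 with numpy 2.4.6, pandas 2.3.3, scipy 1.17.1 and pysam 0.24.0, on GRCh37 with GENCODE v44lift37 genes, and tested on simulated data. Percentiles are ranks of the fold within a list. No test across groups was made, since the lists pool replicates. The members and gene lists were chosen with earlier results of these data known. Named peaks are the 4 nearest on each side of a gene, those in it, the 3 strongest of a window, arisen peaks and the longest runs by number of peaks, and the lost peak at MAX, the MYCN lost runs of 3 peaks, the CCDC26 peak and the 184.3 kb peak were named after their values were seen. Other overlap rules, thresholds and windows were tried.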

Additional observations from a re-analysis of the deposited data

How the results depend on the processing

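Of 71 values recomputed under other settings, 52 stayed within the interval of the reported share or within 1.5 times the reported count. With overlap over 50% of the larger peak, the lost share was 75.8% for MYC, 56.3% for MYCN, 50.8% for MYCL and 58.9% for the windows together. With over 75% it was 81.8% for MYC, 71.9% for MYCN, 59.3% for MYCL and 68.5% for the windows together. The genome's share moved to 50.7 and 67.7% under these rules. With the control list cut to the 29558 strongest peaks, 28.6% were lost around MYC, 39.1% around MYCN and 36.1% together, beside 24.6% over the genome. With a control FDR of at most 1e-05 against the whole treated list, 42.4% were lost together, beside 29.3%. With windows of 0.5 Mb to either side, 29.6% were lost around MYCL and 41.4% together, below the 42.9% of all control peaks. In these windows 56.3% were lost around MYC and 46.7% around MYCN, above it. Arisen peaks numbered 2 with an FDR of at most 1e-05 in both lists, 0 with that limit on the treated list alone, and 12 where an overlap of up to 50% still counted as arisen. At that FDR the MYC window held 7 treated peaks. An exact match was found in 12.1% of control peaks around MYC, 9.38% around MYCN and 13.6% around MYCL. Among alternatives chosen after seeing the data, the shortened control list gave lost shares of 14.6% with a match and 65.7% without, for the windows together. The genome's shares by match were not computed for the shortened list. The causes were not tested. No paired analysis was possible because each list pools the replicates of a group, and for the same reason leaving out a replicate was not run.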
